A study of Mus musculus with 6 samples.

Results

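The genes described here are 34 known targets of the hypoxia-inducible factors (HIF): 18 that act in glucose uptake, glycolysis, lactate export or the control of pyruvate use, and 16 others that act in angiogenesis, mitophagy, pH control, collagen modification and related processes. They were chosen by name from the gene count table of a study of mouse intestinal epithelium, where they take 35 of 54532 rows, because Aldoa is listed under 2 identifiers. All 35 rows passed the filter on low counts. HIF subunits and the Egln genes, which encode the oxygen-sensing prolyl hydroxylases, were left out of the set. PolyA RNA had been sequenced from 3 libraries of mice gavaged with the yeast Candida albicans and 3 libraries of mice gavaged with phosphate-buffered saline (PBS), at intervals of 3 days over 2 weeks. Both groups were labelled Apoe-/-, the genotype lacking functional apolipoprotein E that is used as a model of atherosclerosis. The labels leave out age, sex, gut segment, how the epithelium was taken and whether each library is a separate mouse. All p-values therefore cover the library-to-library spread only, and that spread may be technical.

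HIF is a pair of basic helix-loop-helix proteins, an oxygen-labile alpha subunit and the stable partner Arnt, that bind short DNA elements and raise transcription when oxygen is low. Its targets move cells toward glycolysis: they bring in glucose, split it to pyruvate, turn pyruvate to lactate and keep pyruvate out of the mitochondria. Others recruit blood vessels, remove mitochondria or balance acid. In the gut, oxygen falls from the base of the crypt toward the villus tip or the surface facing the lumen, so the epithelium holds HIF even in health.

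The core of the DNA element bound by HIF was looked for in the promoters of the members. Since the members were chosen as known HIF targets, a high share among them is no independent support for that choice. The core was written as ACGTG or GCGTG and searched on both strands of the 300-base RefSeq windows (build GRCm38.p6). These windows run from 250 bases before to 50 after a gene's start. A window was found for 31 of the 34 members (Ero1l under its current symbol Ero1a). Slc2a3, Bnip3l and Ndrg1 had none in the table. At least 1 core stood in a window of 29 of the 31 members (93.5%), 16 of 17 glycolytic ones and 13 of 14 others, against 64.8% of the 11424 genes tested here that had a window. Members had more windows per gene, 48 for 31 genes against 14557 for 11424, and by window the shares were 39 of 48 (81.2%) against 59.1%. The member windows were also richer in G and C, with a median of 64.8% against 60% in the windows of genes tested here. A match is a run of letters and not a binding site, and such short cores are found by base composition alone.

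Stretches of 5 promoters are printed to show how the cores lie in members that stood apart (Hk2, Slc2a1 and Vegfa) and in long-known HIF targets whose groups overlapped (Pgk1 and Bnip3). Each run ends before the start of the deposited gene and of the RefSeq transcript, reads 5′ to 3′ along the gene's strand, and has the cores in capitals. CACGTG holds a core on each strand and counts as 2 overlapping matches.
Hk2, chr6:82774455-82774704, minus strand, cores beginning 226 and 52 bases before the start: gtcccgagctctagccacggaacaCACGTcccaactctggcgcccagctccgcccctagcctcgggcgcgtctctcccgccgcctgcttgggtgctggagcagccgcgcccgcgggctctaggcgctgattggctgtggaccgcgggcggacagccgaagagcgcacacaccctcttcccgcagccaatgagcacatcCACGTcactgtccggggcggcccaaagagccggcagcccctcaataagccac
Slc2a1, chr4:119108495-119108710, plus strand, a core beginning 27 bases before the start: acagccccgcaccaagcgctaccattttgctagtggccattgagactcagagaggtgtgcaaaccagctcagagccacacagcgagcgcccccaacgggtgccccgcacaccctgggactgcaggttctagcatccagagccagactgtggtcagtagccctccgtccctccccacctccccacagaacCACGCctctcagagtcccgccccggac
Vegfa, chr17:46032378-46032627, minus strand, no core in this stretch: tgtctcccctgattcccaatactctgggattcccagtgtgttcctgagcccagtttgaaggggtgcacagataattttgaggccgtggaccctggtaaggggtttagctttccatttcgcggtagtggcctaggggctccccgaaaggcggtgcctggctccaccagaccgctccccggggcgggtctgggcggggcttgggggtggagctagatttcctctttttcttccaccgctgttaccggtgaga
Pgk1, chrX:106186850-106187099, plus strand, cores beginning 150 and 131 bases before the start: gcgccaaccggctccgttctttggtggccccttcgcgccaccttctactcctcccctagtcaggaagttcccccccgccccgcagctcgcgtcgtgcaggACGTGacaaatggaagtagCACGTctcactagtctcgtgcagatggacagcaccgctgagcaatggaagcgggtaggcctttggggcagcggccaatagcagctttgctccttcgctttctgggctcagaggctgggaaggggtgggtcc
Bnip3, chr7:138909520-138909756, minus strand, 5 core matches between 104 and 22 bases before the start: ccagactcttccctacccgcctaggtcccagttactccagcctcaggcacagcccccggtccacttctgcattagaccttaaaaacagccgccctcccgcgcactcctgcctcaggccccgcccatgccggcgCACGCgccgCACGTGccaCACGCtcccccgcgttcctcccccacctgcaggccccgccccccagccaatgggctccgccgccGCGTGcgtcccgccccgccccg
Distances are counted from the end of each printed run. The Slc2a1 run was cut at the deposited gene start. Its RefSeq window holds 2 core matches before the RefSeq start, not all of them within the printed run. Vegfa has a second start in the RefSeq table, and the window there holds 2 core matches. The element long described for Vegfa lies further upstream than the printed stretch reaches.

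Library totals lay between 21406930 and 24891735 counts. Transcripts of Apoe, the gene named in the genotype, were counted in all 6 libraries, at 51.8 to 76.0 CPM (counts per 1000000 of the TMM-scaled library total) with Candida albicans and 59.2 to 106 CPM with PBS. The share of counts from mitochondrially encoded genes was 3.19% to 4.63% in Candida albicans libraries and 5.89% to 8.92% in PBS libraries. Markers of mature villus enterocytes summed to 58011 to 81783 CPM with Candida albicans and 10975 to 38499.5 CPM with PBS, with all 15 on the higher side. Proliferating crypt markers summed to 233 to 320 and 326 to 672 CPM, with all 15 on the lower side. Epithelial markers such as Epcam were abundant everywhere (19658 to 22836 CPM with Candida albicans and 12791 to 21449.7 CPM with PBS). Smooth muscle markers were also counted, at 206 to 1792 CPM with Candida albicans and 524 to 7055 CPM with PBS, and fibroblast markers at 12.8 to 194 and 109 to 795 CPM. Endothelial (15.6 to 34.3 and 27.7 to 52.6 CPM), enteric neuron and glia (20.1 to 44.7 and 13.1 to 80.3 CPM), red blood cell (3.95 to 13.6 and 6.05 to 8.77 CPM) and leukocyte markers (57.5 to 295 and 120.5 to 283 CPM) overlapped between the groups. The neutrophil markers S100a8 and S100a9 were near 0 throughout, with no count in Candida albicans libraries and at most 1 and 5 counts in a PBS library. In bulk samples fewer cells of a type and less RNA per cell cannot be told apart. What part these differences in cell content have in the results below was not tested. For some members the value from a fit with a smooth muscle marker score as covariate is given beside the main value.

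The HIF targets did not move as one group. None of the 35 rows passed an adjusted p of 0.05 in edgeR's quasi-likelihood test, where 0% of the 16313 genes tested did. At an adjusted p under 0.1 the members past it were the hexokinase gene Hk1 and the phosphofructokinase regulator Pfkfb3 on the lower side and the growth factor gene Vegfa on the higher side, 3 of 35 rows where 12.6% of all genes were past it (6.61% higher and 6.04% lower). Without adjustment, 7 members (20%) had a p under 0.05, beside 29.6% of all genes. Among glycolytic rows 5 of 19 were past that looser limit, all lower (Hk1, Pfkfb3, Slc2a1, Hk2 and Aldoa), beside 16.2% of all genes lower and 13.4% higher. Of the 16 other targets 1 was higher (Vegfa) and 1 lower (P4ha2). The median log2 fold change, Candida albicans over PBS, was -0.31 for glycolytic rows and 0.07 for the other targets, beside -0.16 for all genes tested. The glycolytic median is the value of the scarce second Aldoa entry (0.10 to 0.60 CPM). The rows on either side of it were Pfkl (-0.38) and Pgk1 (-0.14). Without PBS replicate 1 the medians were -0.09 and 0.32. That of the other targets was below 0 without Candida albicans replicate 3 (-0.14) or PBS replicate 3 (-0.04), under library totals (-0.21), with quality weights in limma-voom (-0.04) and with a smooth muscle marker score as covariate (-0.15), so it has no settled sign. The DESeq2 Wald test put 5 members past an adjusted p of 0.05, Hk1, Hk2, Slc2a1 and Pfkfb3 lower and Vegfa higher, where it called 19.7% of the genes it adjusted (11.8% higher and 7.86% lower). For the members as a whole these shares lie below those of the whole table, so the number called is no result about HIF targets. The lower share of the glycolytic rows (26.3%) lies above its background, and no test was made of that difference.

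**Figure D1:**
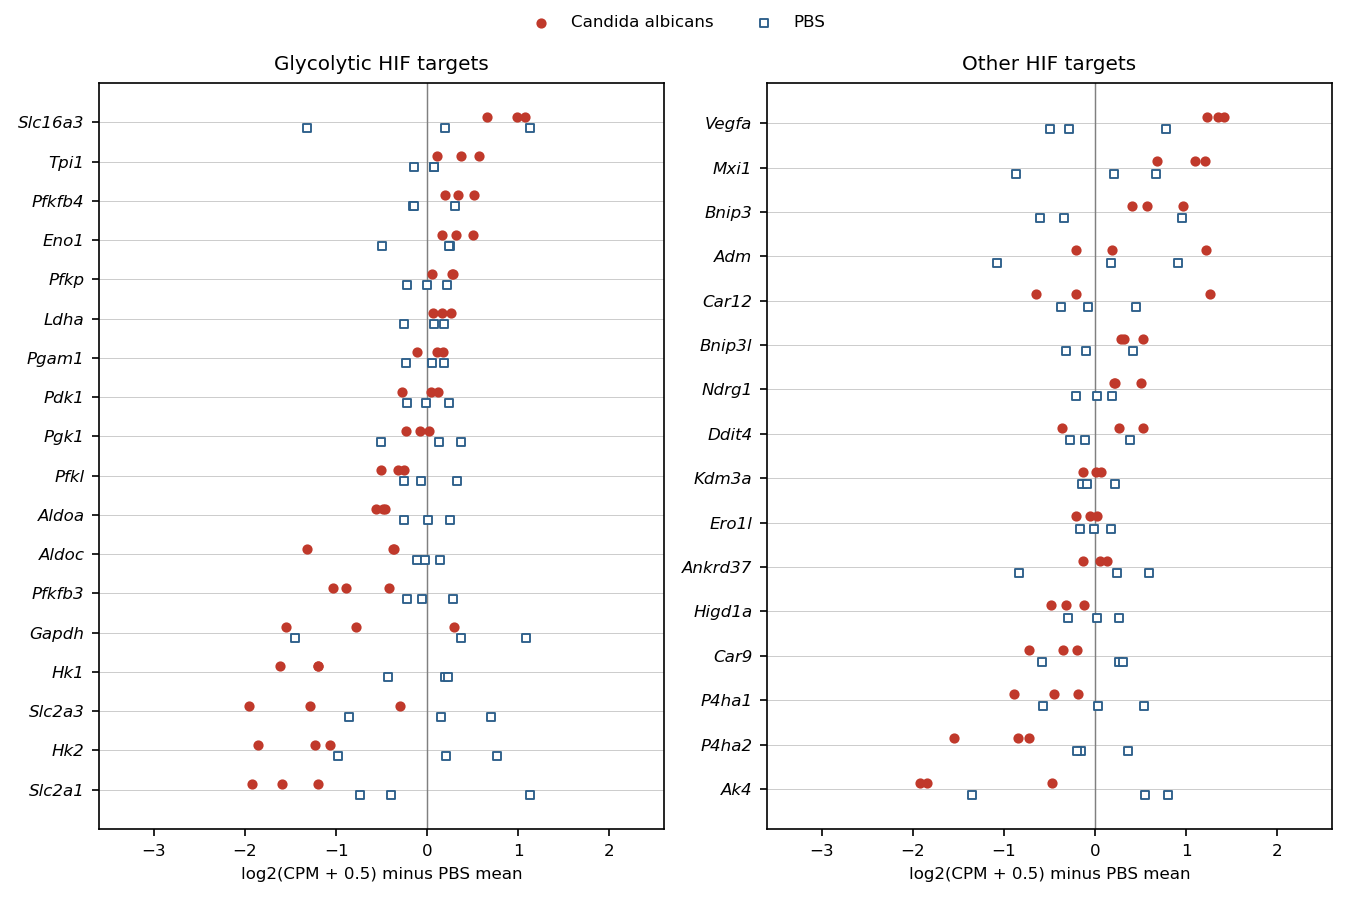
Each point is 1 library: its log2(CPM + 0.5) minus the mean of the 3 PBS libraries for that gene (x axis), for glycolytic targets on the left and other targets on the right, with Candida albicans as filled circles above PBS as open squares. The second Aldoa entry, with under 1 CPM in every library, is not drawn. The circles lie apart from the squares on the lower side for Slc2a1, Hk1, Hk2, Pfkfb3, Aldoa, Aldoc and P4ha2 and on the higher side for Vegfa, Mxi1, Ndrg1 and Tpi1.

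The groups did not overlap for 7 of 19 glycolytic rows (36.8%) and 4 of 16 other targets (25%), beside 35.6% of all genes. The uptake of glucose and its first phosphorylation held the largest differences among glycolytic members. Slc2a1, which encodes the facilitative glucose transporter GLUT1 (ENSMUSG00000028645, chromosome 4, 119108711 to 119137983, mm10), had 8.10, 10.4 and 13.7 CPM in Candida albicans replicates 1 to 3, against 19.2, 71.0 and 24.4 CPM in PBS replicates 1 to 3. Every Candida albicans library lay below every PBS library, and PBS replicate 2 stood far above the other PBS libraries. The log2 fold change was -1.83 (SE 0.53, adjusted p 0.10), and -0.94 without PBS replicate 2. Slc2a3, which encodes GLUT3, was scarce: 2.42, 0.43 and 0.98 CPM with Candida albicans, against 5.37, 1.49 and 3.49 CPM with PBS. Its groups overlapped, and the log2 fold change was -1.44 (SE 0.73, adjusted p 0.23). The higher libraries of each group for Slc2a3 were also those with the most smooth muscle marker counts. A fit that took the smooth muscle score as covariate gave -0.19 for Slc2a3 and -2.58 for Slc2a1. That score was 6.47, 1.63 and 0.16 with Candida albicans and 8.46, 4.56 and 7.43 with PBS, so it partly followed the groups. The part of smooth muscle content in either difference was not tested.

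The hexokinases, which trap glucose in the cell as glucose phosphate, were both on the lower side. Hk1 (ENSMUSG00000037012, chromosome 10, 62268855 to 62379908) had 11.5, 8.46 and 11.4 CPM with Candida albicans and 30.9, 31.5 and 19.8 CPM with PBS. The 3 Candida albicans libraries lay close together and well below all PBS libraries. It had the lowest p of the members, with a log2 fold change of -1.39 (SE 0.23, adjusted p 0.073). The value was the same in the smooth muscle covariate fit, and -1.18 to -1.55 as each library was left out. That covariate fit held no enterocyte or crypt markers, and the part of cell content in the Hk1 difference was not tested. Hk2 (ENSMUSG00000000628, chromosome 6, 82725025 to 82774454), the isozyme best known as inducible by HIF, had 20.9, 36.5 and 32.4 CPM with Candida albicans and 38.8, 131 and 88.9 CPM with PBS. Here PBS replicate 1 came close to the Candida albicans libraries. Its log2 fold change was -1.53 (SE 0.45, adjusted p 0.10), and -0.996 without PBS replicate 2. Hkdc1, a hexokinase-like gene outside the set and more abundant than either of them here even per kilobase, stood at -0.04 (SE 0.15) on the log2 scale, and was singled out after its value was seen.

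Of the genes of the phosphofructokinase step and its control, Pfkfb3 was the member with no overlap between the groups. Pfkfb3 and Pfkfb4 encode enzymes that make and break the small sugar phosphate that switches on phosphofructokinase. Pfkfb3 (ENSMUSG00000026773, chromosome 2, 11471433 to 11554077) had 15.5, 14.02 and 21.6 CPM with Candida albicans and 28.1, 24.9 and 35.5 CPM with PBS. The groups were apart, at a log2 fold change of -0.79 (SE 0.22, adjusted p 0.093). Pfkfb4 had 199, 179.7 and 224 CPM with Candida albicans and 194, 140.3 and 142 CPM with PBS, with overlapping groups and a log2 fold change of 0.34 (SE 0.18). Of the phosphofructokinase subunits, the log2 fold change of Pfkl (liver type) was -0.38 (SE 0.17) and that of Pfkp (platelet type) 0.20 (SE 0.17). The sign for Pfkp turned under library totals only (-0.08). Pfkp was the more abundant per kilobase of gene length, at a mean of 30.4 CPM per kb over the 6 libraries against 6.96 for Pfkl.

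**Figure D2:**
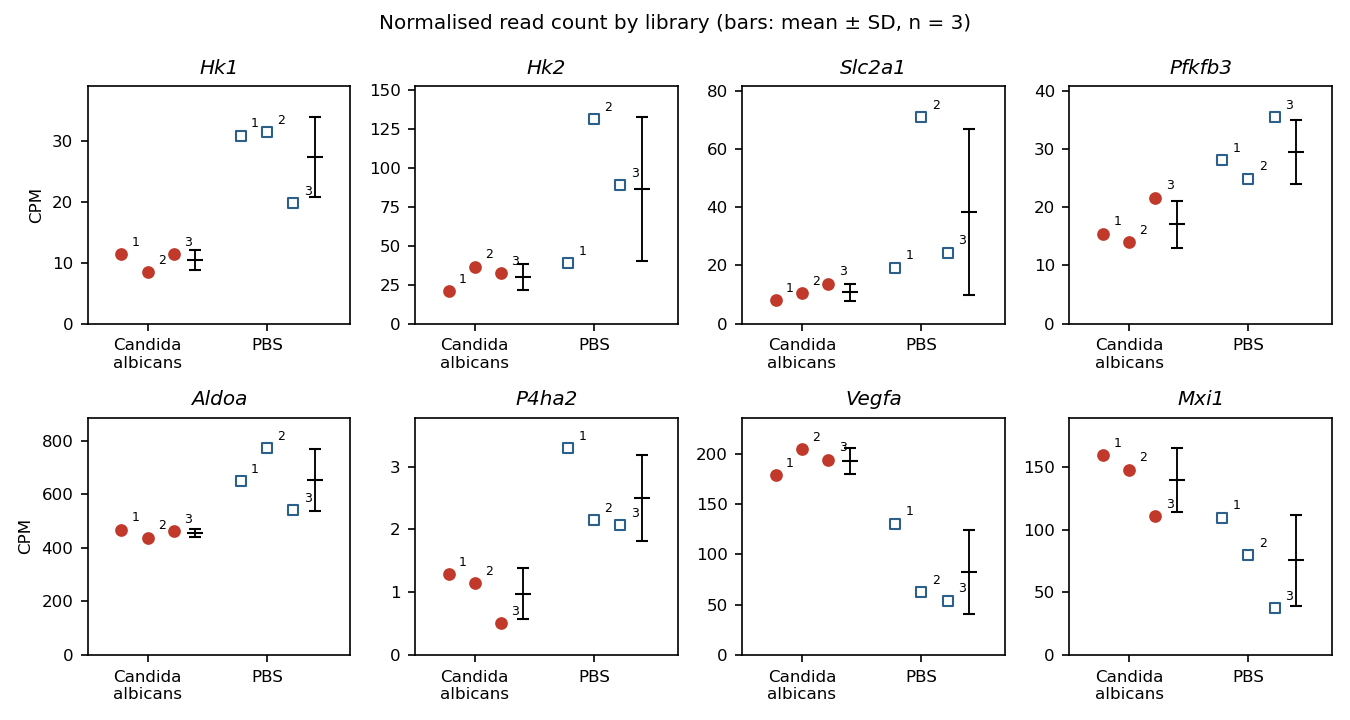
Normalised read count in CPM (y axis, starting at 0) in each library, numbered by replicate, with Candida albicans left of PBS. Black bars beside the points give the mean ± SD of 3 libraries. The 7 members with an unadjusted p under 0.05 are shown with Mxi1, where Candida albicans replicate 3 (111 CPM) and PBS replicate 1 (109 CPM) nearly meet.

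The stretch from aldolase to lactate dehydrogenase held the 6 members of highest mean level per kilobase (Ldha, Tpi1, Aldoa, Eno1, Pgk1 and Pgam1). Aldoa, which splits fructose bisphosphate (ENSMUSG00000030695, chromosome 7, 126795234 to 126800751), had 468, 438 and 462 CPM with Candida albicans and 649, 771 and 541 CPM with PBS. All Candida albicans libraries were lower and nearly equal to each other, with a log2 fold change of -0.52 (SE 0.18, adjusted p 0.12). The second entry under the same symbol (ENSMUSG00000114515) held 0.10 to 0.60 CPM in all 6 libraries. The log2 fold change of Aldoc, a related aldolase best known from brain, was -0.68 (SE 0.33), with 2.72 to 5.73 CPM against 6.92 to 8.34 CPM and no overlap.

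Tpi1, the isomerase of the triose phosphates, was the glycolytic member with no overlap on the higher side, at 785, 687 and 572 CPM with Candida albicans and 558, 557 and 482 CPM with PBS (log2 fold change 0.36, SE 0.18, adjusted p 0.22). Pgk1, phosphoglycerate kinase, had 257, 274 and 230.3 CPM with Candida albicans and 296, 351 and 191 CPM with PBS, so that the Candida albicans libraries lay within the PBS range. Eno1, enolase, had 799, 702 and 633 CPM with Candida albicans and 672, 665 and 401 CPM with PBS. PBS replicate 3 was the low one. Ldha, which makes lactate, was the most abundant member, with 1733, 1611 and 1502 CPM with Candida albicans and 1514, 1643 and 1204 CPM with PBS. Its log2 fold change of 0.15 (SE 0.19) turned to -0.13 under library totals only. The log2 fold changes of Pgk1, Eno1 and the mutase gene Pgam1 were -0.14 (SE 0.24), 0.30 (SE 0.24) and 0.05 (SE 0.15). That of Pgk1 turned without PBS replicate 1 or 2 (0.02 and 0.10), and that of Pgam1 turned under library totals (-0.23). That of Eno1 was 0.53 without PBS replicate 1, 0.12 without PBS replicate 3 and 0.02 under library totals.

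Gapdh, often used as a reference gene, varied more within each group than the other enzymes of this stretch. It had 26.9, 46.3 and 98.2 CPM with Candida albicans and 169, 103 and 28.8 CPM with PBS, and a log2 fold change of -0.81 (SE 0.71, adjusted p 0.45). The groups overlapped, although PBS replicates 1 and 2 lay above every Candida albicans library. Per kilobase it averaged 19.1 CPM, far under its neighbours in the pathway Tpi1 (220.4), Aldoa (191), Eno1 (120) and Pgk1 (119), and under Ldha (464). Of the distinct 50-base stretches in its transcripts, 25.1% also occur in transcripts of other genes, among them the gene models Gm7336 and Gm4691. Such sharing was 53.9% for Pgk1, 47.2% for Bnip3, 36.2% for Pgam1 and 26% for Eno1 and exceeded 10% for 9 of the 35 rows. It was 0% for Hk2, Pfkfb4 and Pdk1 and 11 rows in all. No source used here says how reads of several origins were counted, so levels of the genes with large shares are uncertain, and its part in the low Gapdh level was not tested.

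At the fate of pyruvate, Pdk1, the kinase that shuts pyruvate dehydrogenase and keeps pyruvate from the mitochondria, had 30.0, 39.5 and 37.3 CPM with Candida albicans and 31.0, 36.0 and 42.8 CPM with PBS. The ranges nearly coincided, with a log2 fold change of -0.04 (SE 0.17) that turned to 0.05 under DESeq2 size factors. The lactate exporter gene Slc16a3 (MCT4) had 99.6, 94.0 and 74.8 CPM with Candida albicans and 104, 54.1 and 18.6 CPM with PBS. PBS replicates 2 and 3 were low and replicate 1 was not, and the log2 fold change was 0.61 (SE 0.55), or 1.41 without PBS replicate 1.

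Other isozymes and the rest of sugar metabolism, taken from lists outside the set, show where the members stand along the pathway. Of 33 further glycolysis and pyruvate genes, an unadjusted p under 0.05 was reached by 10 higher and 1 lower (33.3%, beside 29.6% of all genes), with a median log2 fold change of 0.06. Those of lowest p on the higher side were Pdp2, a pyruvate dehydrogenase phosphatase (0.84, SE 0.19), Galm, galactose mutarotase (0.95, SE 0.24), and Pklr, the liver and red cell pyruvate kinase (0.79, SE 0.22). On the lower side they were Adpgk, an ADP-dependent glucokinase (-1.08, SE 0.28), Dlat, a pyruvate dehydrogenase subunit (-0.32, SE 0.15), and Eno2, the enolase of neurons (-2.41, SE 1.13), of which Adpgk was past that limit. Slc2a2, the glucose transporter GLUT2 of absorbing enterocytes, had 488, 417 and 207 CPM with Candida albicans and 168, 81.2 and 24.8 CPM with PBS, opposite to Slc2a1. It was picked out after its values were seen.

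Of 8 gluconeogenesis genes, 5 higher and 1 lower (Pck2) reached an unadjusted p under 0.05 (75%, beside 29.6% of all genes), with a median log2 fold change of 0.86. The glucose phosphate transporter gene Slc37a4 (0.92, SE 0.14) and the fructose bisphosphatase genes Fbp2 (0.79, SE 0.13) and Fbp1 (1.47, SE 0.25) had the lowest p on the higher side. On the lower side were Pck2, the mitochondrial carboxykinase (-0.86, SE 0.19), and G6pc3, a widely expressed glucose phosphatase (-0.54, SE 0.23). None of these genes passed an adjusted p of 0.05. The markers of mature enterocytes, given above, were higher in the same libraries, and their part was not tested.

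**Figure D3:**
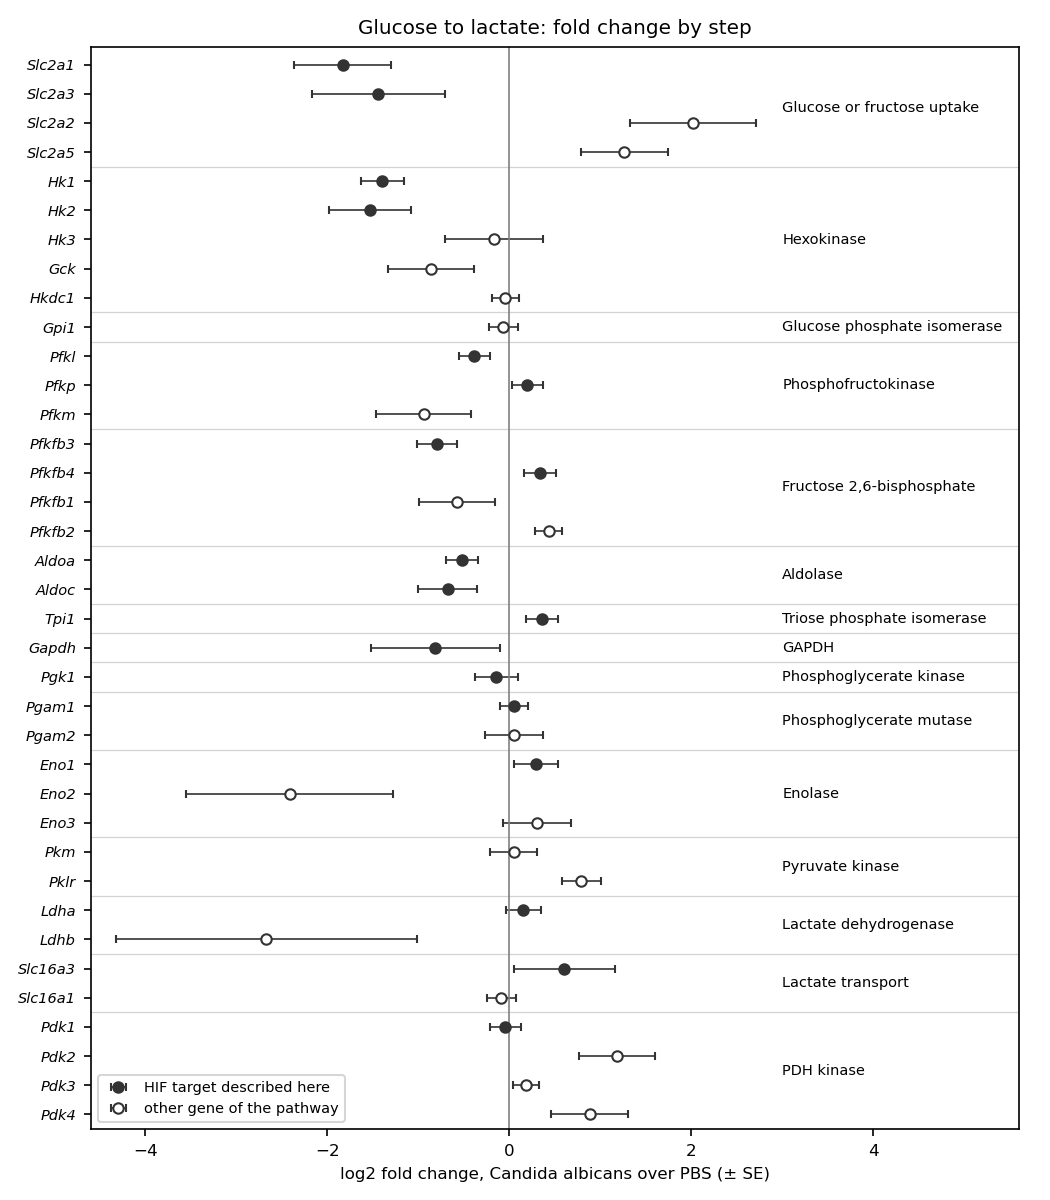
Log2 fold change, Candida albicans over PBS (x axis, with SE bars from edgeR's fit of 3 against 3 libraries), for genes at each step from sugar uptake to lactate and pyruvate use, with HIF targets of the set as filled circles and the other genes as open circles. Slc2a1, Hk1, Hk2 and Aldoa lie on the lower side and Slc2a2 and Pklr on the higher side. Of the HIF targets from Tpi1 to Ldha, Tpi1 (0.36, SE 0.18) and Eno1 (0.30, SE 0.24) lie furthest above 0. Pgk1, Pgam1 and Ldha lie nearer 0, and the bar of Gapdh is wide.

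A plain ratio within a library does not depend on how libraries are scaled. Here 0.5 was added to each CPM first, so scaling has some effect for scarce genes such as Slc2a3 and P4ha2. In this way 8 pairs of related members were compared. The log2 ratio of Pfkfb3 to Pfkfb4 was -3.54 ± 0.17 with Candida albicans and -2.41 ± 0.39 with PBS (SD, n = 3 each), a difference of -1.13 with no overlap (exact two-sided permutation p = 0.1). The log2 ratio of Pfkl to Pfkp was -3.42 ± 0.04 with Candida albicans and -2.85 ± 0.09 with PBS (SD, n = 3 each), a difference of -0.57 with no overlap (exact two-sided permutation p = 0.1). With 3 libraries against 3 this test cannot go below 0.1, and adjusted over the 8 pairs both values were 0.4. These ratios use CPM + 0.5, and no difference in ratio passed the test. The other 6 pairs overlapped between the groups, with exact p from 0.3 to 0.9. For Hk1 to Hk2 the difference was 0.05 and for Bnip3 to Bnip3l it was 0.28.

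**Figure D4:**
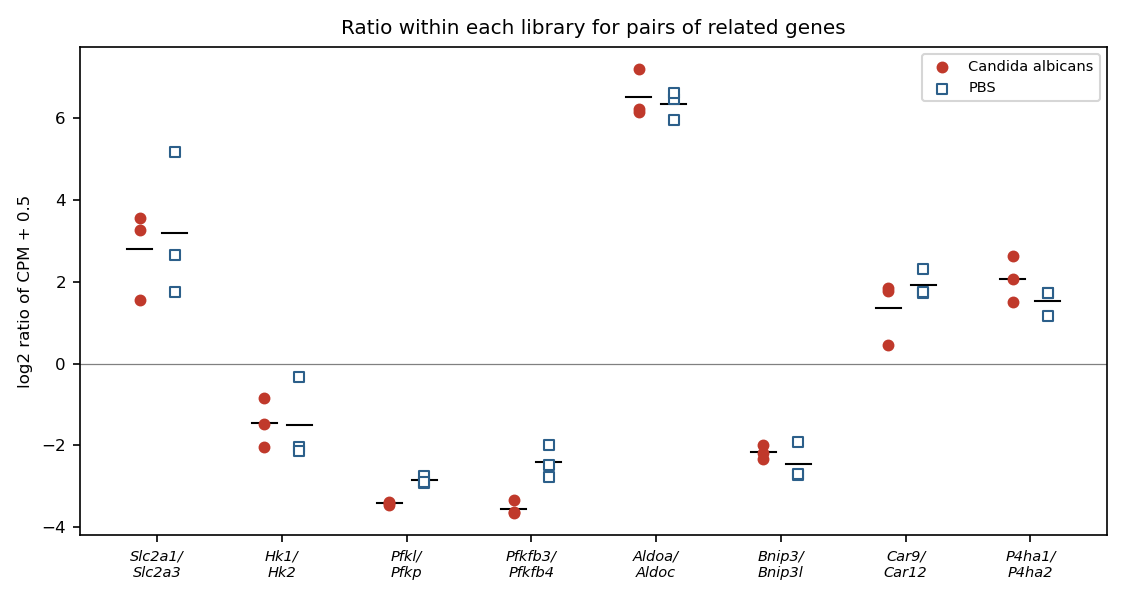
Log2 ratio of CPM + 0.5 between the genes named under the axis (y axis) in each library, with Candida albicans as filled circles left of PBS as open squares and a black line at each mean of 3. For Pfkl to Pfkp and for Pfkfb3 to Pfkfb4 all circles lie under all squares, and the other 6 pairs overlap.

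Among the targets outside glycolysis, Vegfa was the member with the largest difference on the higher side. It encodes the growth factor that draws blood vessels into tissue (ENSMUSG00000023951, chromosome 17, 46016993 to 46032369). It had 178, 204 and 194 CPM with Candida albicans, against 130.5, 62.4 and 53.9 CPM with PBS. The Candida albicans libraries were tightly grouped and above all PBS libraries, of which replicate 1 was the highest. The log2 fold change was 1.22 (SE 0.34, adjusted p 0.094), 1.84 without PBS replicate 1, and 1.45 in the smooth muscle covariate fit. Adm, the vasodilator peptide adrenomedullin, had 2.81, 3.85 and 8.40 CPM with Candida albicans and 6.69, 3.803 and 1.31 CPM with PBS. Its groups overlapped, and the log2 fold change of 0.35 (SE 0.66) turned to -0.23 without Candida albicans replicate 3, -0.03 without PBS replicate 3 and -0.26 in the smooth muscle covariate fit.

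Mitophagy receptors were on the higher side with overlap. Bnip3 had 17.97, 13.5 and 12.0 CPM with Candida albicans and 17.7, 5.70 and 6.95 CPM with PBS. Bnip3l, also called Nix, had 73.4, 63.5 and 62.1 CPM with Candida albicans and 68.0, 40.7 and 47.6 CPM with PBS. In both genes PBS replicate 1 matched the Candida albicans libraries and the other PBS libraries were lower. The log2 fold changes were 0.52 (SE 0.45) and 0.35 (SE 0.20), and 1.31 and 0.71 without PBS replicate 1. For Higd1a, a small mitochondrial protein induced by hypoxia, the log2 fold change was -0.33 (SE 0.18), with 33.1 to 42.8 CPM and 38.0 to 56.2 CPM. For Bnip3 and Higd1a, 22.3% and 22.5% of exonic bases lie under an exon of a gene on the opposite strand, and no source used here states the strand setting of the counting.

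The carbonic anhydrases, which buffer acid at the cell surface, overlapped between the groups. Car9, a classic HIF target, had 33.2, 43.1 and 48.1 CPM with Candida albicans and 36.9, 66.7 and 68.7 CPM with PBS, with a log2 fold change of -0.47 (SE 0.27). PBS replicate 1 was within the Candida albicans range. Car12 had 8.94, 12.3 and 34.9 CPM with Candida albicans and 10.9, 19.6 and 13.5 CPM with PBS. Candida albicans replicate 3 alone held the high value, and the log2 fold change of 0.35 (SE 0.53) became -0.46 without that library.

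Among feedback and stress targets Mxi1 had the largest log2 fold change. Mxi1, a repressor that opposes Myc, had 159, 148 and 111 CPM with Candida albicans and 109, 79.3 and 37.5 CPM with PBS, apart by a narrow gap, with a log2 fold change of 0.88 (SE 0.38, adjusted p 0.18). Ndrg1, a stress-induced gene of differentiated epithelium, had 70.8, 71.3 and 86.6 CPM with Candida albicans and 69.6, 52.9 and 61.8 CPM with PBS. It too was apart by a narrow gap, at a log2 fold change of 0.31 (SE 0.15, adjusted p 0.20). Ddit4, an inhibitor of mTORC1 also called Redd1, had 25.2, 39.1 and 47.1 CPM with Candida albicans and 42.7, 30.2 and 26.9 CPM with PBS. The ranges nearly coincided, and its log2 fold change of 0.16 (SE 0.27) turned to -0.10 under library totals only.

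Ankrd37, a gene of little known function that HIF induces strongly in cultured cells, had 8.99, 7.79 and 9.46 CPM with Candida albicans and 13.2, 10.3 and 4.60 CPM with PBS. The Candida albicans libraries lay inside the PBS range, with a log2 fold change of -0.10 (SE 0.38). Of its exonic bases 26.4% lie under opposite-strand exons of Lrp2bp and Ufsp2. The histone demethylase gene Kdm3a (-0.03, SE 0.13) and the disulfide-forming oxidase gene Ero1l (-0.09, SE 0.13) had the narrowest errors of the other targets. The sign for Kdm3a turned under DESeq2 size factors (0.05). Their libraries spanned 43.4 to 49.8 CPM and 48.7 to 57.4 CPM with Candida albicans and 43.3 to 55.9 CPM and 50.5 to 64.1 CPM with PBS.

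Collagen prolyl hydroxylase subunits and Ak4 were scarce and on the lower side. P4ha2 (ENSMUSG00000018906, chromosome 11, 54100095 to 54131665) had 1.28, 1.14 and 0.51 CPM with Candida albicans and 3.29, 2.15 and 2.06 CPM with PBS. The groups were apart, with a log2 fold change of -1.35 (SE 0.45, adjusted p 0.12), and -0.81 in the smooth muscle covariate fit. For P4ha1 the log2 fold change was -0.59 (SE 0.36), with 4.13 to 7.01 CPM and 5.28 to 11.9 CPM. Fibroblast markers summed to 12.8 to 194 CPM in Candida albicans libraries and 109 to 795 CPM in PBS libraries, as given above. All 10 were on the lower side, and the sums overlapped between the groups. The part of fibroblast content in the P4ha1 and P4ha2 values was not tested.

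Ak4, a mitochondrial adenylate kinase, had 1.78, 0.38 and 0.34 CPM with Candida albicans and 5.03, 0.74 and 4.13 CPM with PBS. The libraries held it in the order of their summed smooth muscle markers, which were 1792, 234 and 206 CPM with Candida albicans and 7055, 524 and 3493 CPM with PBS. Its log2 fold change was -1.99 (SE 0.92, adjusted p 0.20), and -0.13 in the smooth muscle covariate fit. The covariate fit gives a second estimate and is no test of smooth muscle content as a source of the Ak4 difference. The enterocyte and crypt markers were not fitted as covariates for any member.

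Of 35 further HIF targets outside the set 31 were tested. An unadjusted p under 0.05 was reached by 7 higher and 4 lower ones (35.5%, beside 29.6% of all genes), with a median log2 fold change of -0.27. On the higher side the lowest p values belonged to the lipid droplet gene Plin2 (0.64, SE 0.14), Narf (0.55, SE 0.16) and the lipase inhibitor gene Angptl4 (1.64, SE 0.58). On the lower side they belonged to the glycogen synthase gene Gys1 (-0.83, SE 0.17), the cytokine gene Mif (-1.23, SE 0.27) and the collagen cross-linking gene Loxl2 (-2.07, SE 0.77). Plin2 and Angptl4 are also known targets of the lipid-sensing PPAR receptors. Of 13 HIF pathway components, 3 were past that limit (23.1%, beside 29.6% of all genes). They were the partner subunit gene Arnt (0.44, SE 0.13) and Hif1an, an asparagine hydroxylase gene that restrains HIF (0.27, SE 0.10), on the higher side and the alpha subunit gene Hif3a (-1.43, SE 0.42) on the lower side, named after their values were seen. The log2 fold changes were smaller than their errors for Hif1a (-0.06, SE 0.24) and Epas1 (-0.02, SE 0.21). Egln3, a hydroxylase gene that HIF induces, had 235, 176 and 156 CPM with Candida albicans and 252, 179 and 67.7 CPM with PBS, with overlapping groups (0.19, SE 0.46).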

How the data were processed

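The authors deposited raw read counts per Ensembl gene, 1 column per library, with no normalization, and a gene length in bases. The submitters' processing notes name mm10 as build and, as tools, featureCounts 2.0.1, HISAT2 2.2.1 and Trim Galore 0.6.7. No source used here gives the strand setting, annotation release or handling of reads with several matches.

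The main test was edgeR 4.0.16 in R 4.3.3 (filterByExpr, minimum count 10 and total 15; TMM scaling; glmQLFit with robust=TRUE; glmQLFTest, two-sided, Candida albicans against PBS, no covariate). Of 29031 genes with a count, 16313 were tested, with Benjamini-Hochberg adjustment over all of them and a threshold of 0.05. SEs come from the F statistic. CPM uses TMM-scaled totals, and a count of 0 allows up to 0.113 to 0.148 CPM (3 counts, counting error only). Every pair of libraries differed beyond counting noise (lowest chi-square over its degrees of freedom 32.8), and each is 1 sample. Pair ratios used exact permutation tests. The edgeR test was first tried on simulated data. Shared 50-base stretches and exon overlaps were taken from GENCODE M21, which gives 33 of the 35 rows the same start and end. The smooth muscle score is the mean log2 CPM (prior count 2) of 10 markers.

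Members and lists were chosen with earlier results of these data known. Members with an unadjusted p under 0.05 and 20 named in any case are given by library, the rest by range (Slc16a3, Mxi1, Pfkfb4, Tpi1 and Ak4, by library too, were added after their values were seen), from wider lists up to 3 of lowest p in each direction, and of HIF components Hif1a, Epas1 and Egln3. Alternatives were DESeq2 1.42.0 size factors and Wald test, upper quartile scaling, library totals, limma-voom (limma 3.58.1) with and without quality weights, no filter, a mean of 5 CPM or more, the replicate number as a block, a smooth muscle covariate, and removal of each library. Some items are not reported here.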

Additional observations from a re-analysis of the deposited data

How the results depend on the processing

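The count of 0 genes past an adjusted p of 0.05 depended on tool, filter and scaling. It was 3 under upper quartile scaling, 188 under library totals, 2897 by the DESeq2 Wald test, 2569 by limma-voom with quality weights, 552 with no filter, 43 among genes averaging 5 CPM or more and 42 in the smooth muscle covariate fit, and 0 to 2620 as each library was left out (2620 without PBS replicate 1). Under the same settings the glycolytic members past it numbered 1 (library totals), 4 (DESeq2 Wald), 5 (quality weights) and 1 (no filter), and 0 to 3 with a library left out. All were lower, apart from 1 of the 3 without PBS replicate 1 (Pfkfb4). The other targets past it numbered 1 by the DESeq2 Wald test and 1 with quality weights, and 0 to 3 with a library left out, all higher. At an unadjusted p under 0.05 there were 8 glycolytic members under library totals (all lower) and 8 with quality weights (1 higher, 7 lower), against 5 (all lower). With a library left out there were 4 to 7. The 7, without PBS replicate 1, were 3 higher and 4 lower. For the other targets there were 7 under library totals (1 higher, 6 lower) and 4 by the DESeq2 Wald test (2 higher, 2 lower), against 2. With quality weights there were 5 (4 higher, 1 lower) and with the smooth muscle covariate 4 (3 higher, 1 lower). With a mean of 5 CPM or more there was 1, higher, with 30 rows tested. A library left out gave 1 to 6, and the 6, without PBS replicate 1, were 5 higher and 1 lower. The cause was not tested.

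Scaling shifts all genes. Their median log2 fold change was -0.16 with TMM, -0.45 with library totals (glycolytic median -0.59), -0.20 with upper quartiles and -0.08 with DESeq2 size factors. Of the unadjusted calls over all genes, 45.2%, 13.8%, 41.0% and 54.5% were higher, in that order. The glycolytic median ran from -0.43 to -0.088 with a library left out.

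With the replicate number as a block, 2080 genes, 4 glycolytic members (Hk1, Hk2, Pfkfb3 and Slc2a3) and 1 other target (Mxi1) passed, and 7 other targets had an unadjusted p under 0.05. The numbers are not shown to pair libraries: deviations from the group means correlated at 0.58, 0.36 and 0.05 for replicates 1, 2 and 3. Candida albicans replicate 3 correlated at 0.41 with PBS replicate 2, a pair of unlike number. All other pairs of unlike number were below 0, the lowest at -0.50.

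Of the members' log2 fold changes, 34 values reversed, each of a member whose groups overlapped. Groups that are apart stay apart when 1 library is left out, so those settings could hardly reverse them. With the smooth muscle covariate the reversed values were -0.19 (Ddit4), -0.84 (Car12), -0.26 (Adm) and 0.0696 (Kdm3a). Library totals gave -0.13 (Ldha), -0.077 (Pfkp), -0.23 (Pgam1) and -0.10 (Ddit4). DESeq2 size factors and its Wald test both gave 0.052 (Pdk1) and 0.048 (Kdm3a). Quality weights gave 0.035 (Pdk1), 0.074 (second Aldoa entry) and -0.098 (Car12). Ankrd37 was 0.025 by limma-voom and 0.011 with the replicate block. With a library left out the values ran from -0.31 to 0.099 (Pgk1), -0.026 to 0.26 (Pgam1), -0.12 to 0.13 (Pdk1), -0.13 to 0.13 (Ero1l), -0.061 to 0.21 (Kdm3a), -0.042 to 0.51 (Ddit4), -0.46 to 0.70 (Car12), -0.40 to 0.34 (Ankrd37), -0.23 to 1.10 (Adm) and -0.84 to 0.14 (second Aldoa entry). The differences of log2 ratios ran from -1.11 to 0.60 (Slc2a1 to Slc2a3), -0.27 to 0.64 (Hk1 to Hk2) and -0.15 to 0.37 (Aldoa to Aldoc).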
